A study of Homo sapiens with 6 samples.

Results

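The genes described here are 10 genes of the actin cytoskeleton: the cytoplasmic actins ACTB and ACTG1, the tropomyosins TPM1, TPM2, TPM3 and TPM4, the crosslinkers ACTN1 and ACTN4, the adhesion adaptor VCL and the transcription factor SRF. They were chosen by symbol, and all 10 were found among the 12982 genes of the table. The mRNA of SW480, a human colorectal adenocarcinoma line labelled as wild type, was sequenced after 24 h with MPM-1, a mitochondrial fluorescent probe (WT4 in the labels), or with its solvent DMSO. There were 3 libraries per treatment, and the dose used for sequencing is not given in the sources used here. Nothing in the labels states that the libraries came from separate cultures, so the p-values measure the spread between these libraries, which may be technical. The libraries held between 31733667 and 40269820 counts, and the lowest count of any of the 10 genes was 747, for SRF, where counting error alone was 3.66%. All 9 epithelial markers were detected, with a summed level of 8554 to 10050 CPM (counts relative to library size, with edgeR's TMM adjustment between libraries) in DMSO and 12803 to 14426 CPM in MPM-1. Of these markers 6 rose and 2 fell, with a median log2 fold change of 0.82. ELF3 rose most (1.58), EPCAM did not pass (0.00), VIL1 fell by 0.88 on the log2 scale, and CDX2, an intestinal transcription factor, fell from 82.5 ± 3.51 to 17.9 ± 4.33 CPM (SD, n = 3). Of the markers of other cell types, 2 of 9 for fibroblasts, 3 of 8 for smooth muscle and 2 of 7 for immune cells were in the table. The 2 fibroblast genes summed to 4.79 to 5.47 CPM in the DMSO libraries and to 2.00 to 2.89 CPM in the MPM-1 libraries. MYH11 and CNN1 of smooth muscle and PTPRC of leukocytes were not among the genes of the table.

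Actin monomers polymerise into filaments that give a cell its shape and carry its movement. Tropomyosins lie along these filaments and govern which proteins bind them, alpha-actinins join filaments into bundles, and vinculin links them to integrin adhesions and cell junctions. SRF binds the CArG box in the promoters of many of these genes, and its cofactors of the MRTF family are held back by free actin monomers, so that the state of actin feeds back on the transcription of its own genes. ACTB protein is also the usual loading control of Western blots, a use made of it in this study. Only mRNA was measured here.

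The actin genes are shown by the start of their coding sequence, because the counts of both rest on telling similar sequences apart. Only the coding sequences were compared, not the untranslated parts of the transcripts. The coding sequences were 1125 bases long without the stop codon and 91.3% identical, with 98 differing bases and a longest shared run of 59 bases (GENCODE 29, GRCh38). The first 60 bases, from the start codon on the minus strand, are at chr7:5529598-5529657 for ACTB and chr17:81512295-81512354 for ACTG1, and capitals mark the 10 bases that differ.
ACTB: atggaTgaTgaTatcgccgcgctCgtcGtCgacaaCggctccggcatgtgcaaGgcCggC
ACTG1: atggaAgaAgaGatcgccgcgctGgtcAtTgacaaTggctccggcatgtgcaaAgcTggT
The annotation also names 10 pseudogenes of ACTB and 20 of ACTG1, none of which was in the table. How reads that match several of these copies were counted is not given in the sources used here, so the split between ACTB and ACTG1 is uncertain.

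The promoters were searched for the CArG box, which is CC, then 6 bases that are each A or T, then GG, in RefSeq windows from 250 bases before to 50 bases after each gene's start (GRCh38.p14), a palindromic pattern that reads the same on both strands. ACTG1, TPM4, SRF and ACTN1 held a box in at least 1 window, which is 4 of the 9 genes with a window, or 44.4%, against 1.60% of 27305 genes. Genes with several windows, such as ACTN1 with 4, had more chances to hold a box, and of all 35116 windows 1.29% held one. Many of these genes are known targets of SRF, so the share is only a description. No box was found in the windows of ACTN4, TPM1, TPM2, TPM3 and VCL. ACTB was not among the windows. In the list of MRTF-SRF targets described later, 7 of the 25 genes with a window held a box, although FHL1 and FILIP1L among them were not in the table of measured genes. The stretches of 50 bases that contain the boxes are shown 5′ to 3′ on the strand of the gene, with the box in capitals, because they hold the letters that SRF is known to bind.
ACTG1: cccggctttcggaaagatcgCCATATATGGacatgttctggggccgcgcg
TPM4: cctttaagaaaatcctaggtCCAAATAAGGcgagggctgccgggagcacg
SRF: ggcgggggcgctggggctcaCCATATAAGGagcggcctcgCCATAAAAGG
ACTN1: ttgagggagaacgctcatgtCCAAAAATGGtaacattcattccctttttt
They lie at chr17:81512864-81512913 (minus strand), chr19:16067345-16067394 (plus strand), chr6:43171219-43171268 (plus strand) and chr14:68977708-68977757 (minus strand). The boxes began 94 bases before the start of ACTG1 and 173 before the first of the 3 TPM4 starts. Those of SRF began 30 and 10 bases before the first of its 2 starts, and that of ACTN1 171 before the third of its 4 starts. The other windows of TPM4, SRF and ACTN1 held no box. Each match is a description of letters, and binding was not measured.

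After MPM-1, 6 of the 10 genes rose, 1 fell and 3 did not pass edgeR's quasi-likelihood test at an adjusted p (Benjamini-Hochberg over all genes) under 0.05. Both actins, ACTN1, TPM3, TPM4 and VCL rose, TPM2 fell, and ACTN4, TPM1 and SRF did not pass. Called changes were common in the experiment, as 56.5% of all genes passed the same test, 27.7% higher and 28.8% lower. The median log2 fold change was 0.40 over the 10 genes and -0.026 over all genes. Under a stricter rule, an adjusted p under 0.01 together with a log2 fold change of 1 or more in either direction, TPM4 alone was called, where 5.58% of all genes were called higher and 8.75% lower. The CPM of the treatments did not overlap for 7 of the 10 genes, against 64.3% of all genes (31.0% with MPM-1 higher and 33.3% with MPM-1 lower). Together the 10 genes took 0.890 ± 0.047% of all counts in DMSO and 1.19 ± 0.104% in MPM-1 (SD, n = 3).

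**Figure D1:**
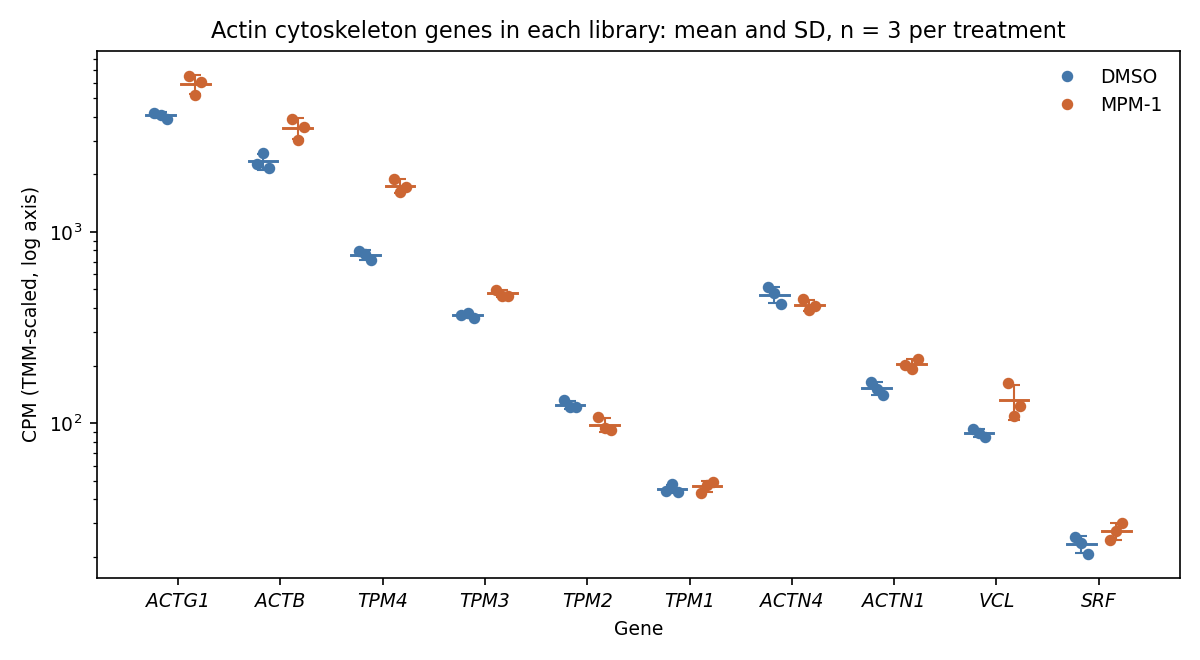
CPM of the 10 genes in each of 3 DMSO (blue) and 3 MPM-1 (orange) libraries on a log axis, with lines for the mean and bars for the SD. TPM4 shows the widest separation, from 759 to 1743 CPM on average, while the libraries overlap for TPM1, ACTN4 and SRF.

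ACTB, the beta-actin gene, on the minus strand of chromosome 7 (chr7:5527147-5563784, GRCh38), was at 2277, 2589 and 2147 CPM in the DMSO libraries and at 3894, 3018 and 3553 CPM in the MPM-1 libraries. Every MPM-1 library was above every DMSO library, and the nearest pair was DMSO replicate 2 and MPM-1 replicate 2. The level rose 1.49-fold (95% CI 1.27 to 1.75), a log2 fold change of 0.58 with an SE of 0.10 and an adjusted p of 0.00103 in edgeR. ACTG1, the gamma-actin gene, on chromosome 17 (chr17:81509971-81523847, minus strand), was at 4194, 4112 and 3918 CPM in DMSO and at 6548, 5200 and 6115 CPM in MPM-1. These groups did not overlap either, and MPM-1 replicate 2 was again the lowest of its group. Its log2 fold change was 0.55 with an SE of 0.083 and an adjusted p of 0.000429. ACTB and ACTG1 together accounted for 0.676 ± 0.0387% of counts in DMSO and 0.895 ± 0.0896% in MPM-1.

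On the FPKM scale (a fragment rate that the authors divided by transcript length), which allows levels of different genes to be compared, ACTG1 was the more abundant actin in every library. It was at 2157 ± 51.7 FPKM in DMSO and 2826 ± 263 FPKM in MPM-1, and ACTB at 1319 ± 139 and 1976 ± 201 FPKM. Among all genes of a library, ACTG1 ranked between 34 and 42 in DMSO and between 16 and 32 in MPM-1. ACTB ranked between 52 and 70 and between 38 and 53, so that its ranks overlapped.

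The ratio of ACTG1 to ACTB depended on which of the deposited values was used. By FPKM it was 1.74, 1.48 and 1.72 in DMSO and 1.42, 1.44 and 1.43 in MPM-1, without overlap, and the exact permutation test (two-sided) gave p = 0.1, the smallest that 3 against 3 libraries allow. By counts it was 1.84, 1.59 and 1.82 in DMSO and 1.68, 1.72 and 1.72 in MPM-1, which overlapped (exact p = 0.6). The values that separate these results lie in ACTB. The CPM scaled by the library total alone, divided by FPKM, which has the unit of a transcript length in kilobases, was 1.86, 1.88 and 1.86 for ACTB in DMSO but 1.67, 1.66 and 1.68 in MPM-1. For ACTG1 this quotient ran from 1.97 to 2.03 over all 6 libraries. The quotient of the MPM-1 mean to the DMSO mean was 0.895 for ACTB, and of 11472 genes that averaged 1 FPKM or more, 4.66% had one as low or lower. For TPM1 the quotient was 1.86, 1.54 and 1.47 in DMSO and 1.75, 1.84 and 1.78 in MPM-1, so it varied within DMSO as well. Over the other 8 genes the means of the treatments differed by a factor of 0.979 to 1.01. Whether the transcripts of ACTB in use differed between treatments was not tested.

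As ACTB is a common standard, it was set beside 18 genes often used as references. Of these, 4 rose, 6 fell and 8 did not pass at an adjusted p under 0.05. Over all genes 27.7% were higher and 28.8% lower, so such calls were common outside this list too. With scaling by library size alone 2 reference genes rose and 9 fell, and over all 12982 genes 2589 were higher and 4871 lower. The rises of reference genes were also 2 without DMSO replicate 2 or without MPM-1 replicate 1. B2M, the light chain of MHC class I, had a log2 fold change of 1.20, and YWHAZ, a 14-3-3 protein, 0.51. GUSB (0.26) and RPLP0 (0.19) also passed, but neither did so with scaling by library size alone (0.11 and 0.035) or in limma on log2(FPKM + 1) (0.082 and 0.094). RPLP0 did not pass without DMSO replicate 1 or 2 or MPM-1 replicate 1 or 2 (adjusted p = 0.0567 to 0.113). GUSB did not pass without DMSO replicate 2 or 3 or MPM-1 replicate 1 (adjusted p = 0.0543 to 0.0745). LMNB1, a nuclear lamin, fell by 2.37 on the log2 scale, SDHA of respiratory complex II by 1.00, TUBA1B by 0.63, IPO8 by 0.43, HPRT1 by 0.42 and PPIA by 0.37. GAPDH was at 6650 ± 480 CPM in DMSO and 6093 ± 254 CPM in MPM-1, and its log2 fold change of -0.13 did not pass, although with library size alone it was -0.28 and passed. RPL13A (0.01), TUBB (0.055), VDAC1 (0.058), TFRC (0.16), TBP (-0.18), PGK1 (-0.17) and POLR2A (-1.35) did not pass, and the values of RPL13A, TUBB and VDAC1 turned negative with library size alone (-0.14, -0.095 and -0.093). PGK1 passed as lower with library size alone (-0.32, adjusted p = 0.00341) and in limma on FPKM. POLR2A passed as lower with library size alone (adjusted p = 0.037), in the DESeq2 test (adjusted p = 0.0395) and without MPM-1 replicate 2 (-2.11, adjusted p = 0.00705). In limma POLR2A passed only without the filter for a mean of at least 1 FPKM, with a smaller value (-0.52), so its large values belong to a low level. GAPDH also passed in limma and without DMSO replicate 2 (-0.18). The estimates of both actins lay above those of 17 of the 18 genes, below B2M.

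**Figure D2:**
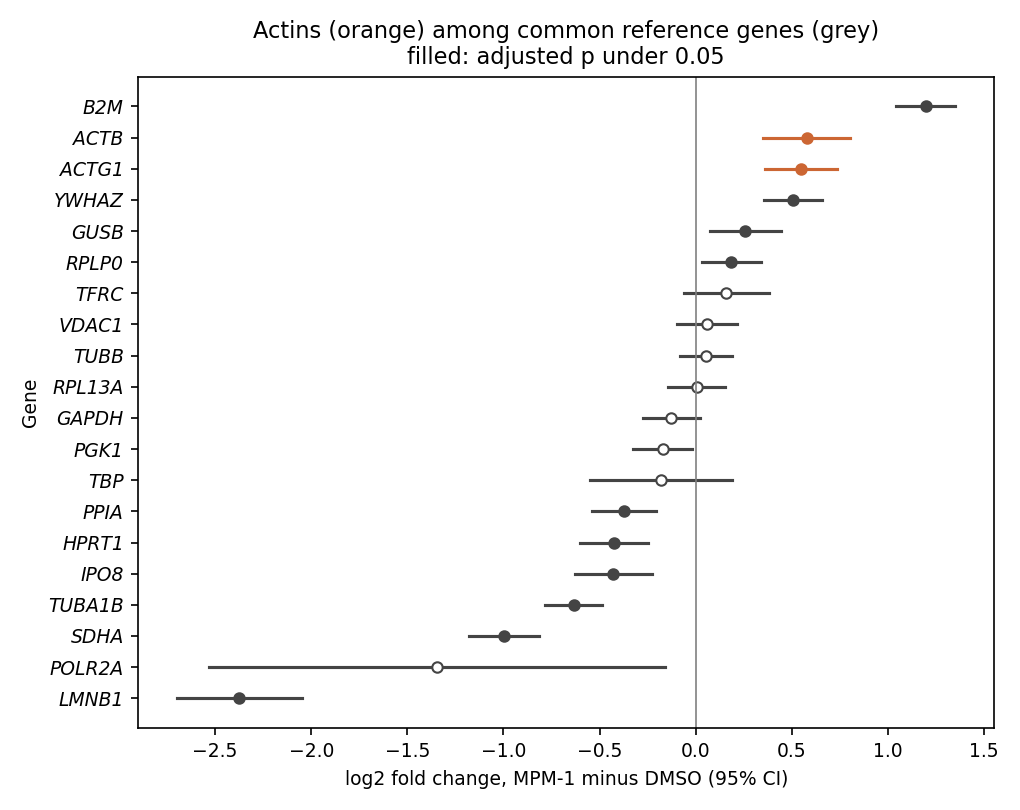
Log2 fold change of MPM-1 against DMSO with its 95% CI for ACTB and ACTG1 (orange) and 18 common reference genes (grey), with filled points for an adjusted p under 0.05. Both actins lie to the right of 0, at 0.58 and 0.55, and the reference genes spread from -2.37 to 1.20.

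The tropomyosins moved in different directions. TPM4, on chromosome 19 (chr19:16067021-16103005, plus strand), was at 798, 766 and 714 CPM in DMSO and at 1897, 1615 and 1716 CPM in MPM-1. The lowest MPM-1 library was above the highest DMSO library by a wide margin, and the level rose 2.29-fold (95% CI 2.03 to 2.60), a log2 fold change of 1.20 with an SE of 0.079 and an adjusted p of 3.31e-06. TPM3, on chromosome 1 (chr1:154155304-154194648, minus strand), was at 368, 378 and 354 CPM in DMSO and at 500, 465 and 465 CPM in MPM-1. All MPM-1 libraries were higher, with a log2 fold change of 0.38, an SE of 0.069 and an adjusted p of 0.00124. TPM2, on chromosome 9 (chr9:35681992-35690121, minus strand), was at 132, 122 and 122 CPM in DMSO and at 108, 94.9 and 91.9 CPM in MPM-1. All MPM-1 libraries were lower here, and the level fell by 0.35 on the log2 scale with an SE of 0.084 and an adjusted p of 0.00632. TPM1, on chromosome 15 (chr15:63042632-63071915, plus strand), was at 44.3, 48.0 and 43.5 CPM in DMSO and at 43.1, 47.7 and 49.4 CPM in MPM-1. Its groups overlapped, and the log2 fold change of 0.046 had a 95% CI of -0.15 to 0.24 and an adjusted p of 0.669. Its sign turned with scaling by library size alone (-0.10) and with FPKM (-0.25), in neither case past the threshold.

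Within the family, the mRNA shifted towards TPM4. Of the summed FPKM of TPM1 to TPM4, TPM4 took 54.6, 53.4 and 52.0% in DMSO and 72.7, 71.0 and 72.3% in MPM-1. TPM2 took 21.2, 19.7 and 20.8% and then 9.45, 9.45 and 9.12%. TPM3, although its own level rose, held 21.0 ± 0.861% in DMSO and 15.9 ± 0.649% in MPM-1, and TPM1 5.10 ± 0.820% and 2.77 ± 0.317% (SD, n = 3). None of the 4 shares overlapped between treatments, and each reached p = 0.1 in the exact permutation test, the smallest possible, and 0.1 after adjustment over the 4 shares. The shares of a library add up to the whole, so a larger TPM4 share leaves less for the others. The 4 tests are therefore not separate results. The shares moved the same way when counts replaced FPKM. These are shares within a library, so they do not depend on how libraries are scaled. The 4 genes have between 12 and 34 annotated transcripts each, and the values of a gene sum over them. The family as a whole took 0.137 ± 0.00516% of counts in DMSO and 0.224 ± 0.0114% in MPM-1.

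**Figure D3:**
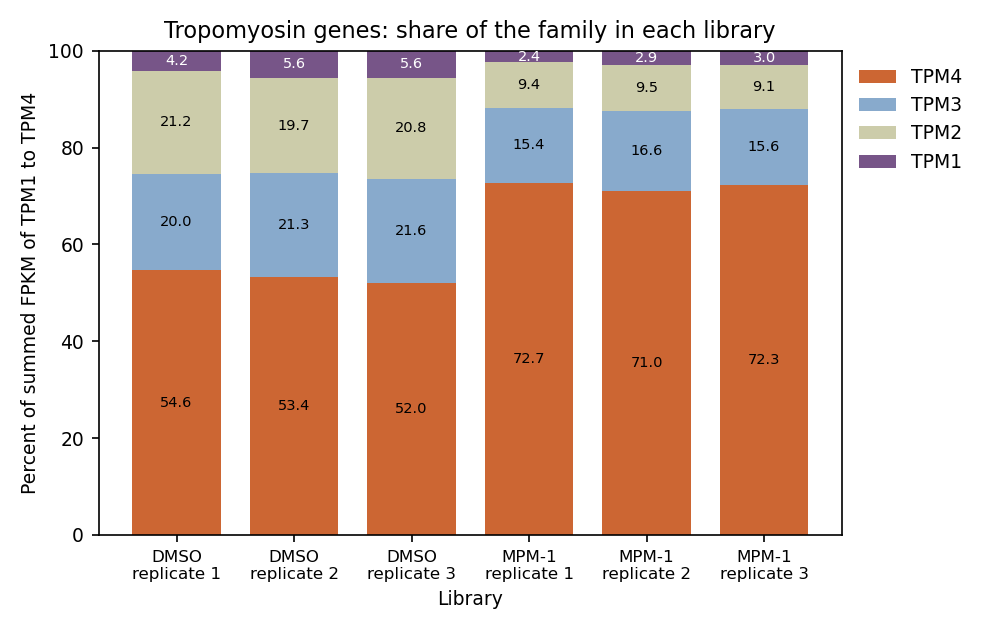
Percent of the summed FPKM of the 4 tropomyosin genes taken by each gene, one bar for each of the 3 DMSO and 3 MPM-1 libraries. TPM4 holds 52.0 to 54.6% in DMSO and 71.0 to 72.7% in MPM-1, and the TPM2 share falls from about 20.6 to 9.34% on average.

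The alpha-actinins also parted. ACTN1, on chromosome 14 (chr14:68874143-68979440, minus strand), was at 165, 151 and 141 CPM in DMSO and at 202, 191 and 218 CPM in MPM-1. The groups did not overlap, and the level rose with a log2 fold change of 0.42, an SE of 0.086 and an adjusted p of 0.0024. ACTN4, on chromosome 19 (chr19:38647649-38731583, plus strand), was at 513, 477 and 422 CPM in DMSO and at 445, 390 and 410 CPM in MPM-1. These groups overlapped, and the log2 fold change of -0.18 had a 95% CI of -0.38 to 0.02 and an adjusted p of 0.109. ACTN4 passed as lower with library size alone (-0.33, adjusted p = 0.00504), with limma on log2(FPKM + 1) (-0.30, adjusted p = 0.03) and without DMSO replicate 3 (-0.25, adjusted p = 0.0449). The ratio of ACTN4 to ACTN1 by FPKM, free of library scaling, was 2.39, 2.43 and 2.30 in DMSO and 1.72, 1.57 and 1.51 in MPM-1. The treatments did not overlap, with a log2 difference of -0.57 and the smallest possible exact permutation p of 0.1. By counts the difference was -0.60.

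VCL, which encodes vinculin, on chromosome 10 (chr10:73995193-74121363, plus strand), was at 93.4, 88.5 and 84.4 CPM in DMSO and at 162, 109 and 123 CPM in MPM-1. All MPM-1 libraries were above all DMSO libraries, and replicate 1 stood high among them. The log2 fold change was 0.57 with an SE of 0.13 and an adjusted p of 0.00507, and without MPM-1 replicate 1 it was 0.40 with an adjusted p of 0.00532. VCL overlaps AP3M1 on the other strand, a gene at 1647 to 2512 counts whose log2 fold change was 0.055, and ACTN4 overlaps CAPN12, at 29 to 58 counts. Whether the counting used strand is not given in the sources used here, so reads of overlapping parts cannot be told apart.

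**Figure D4:**
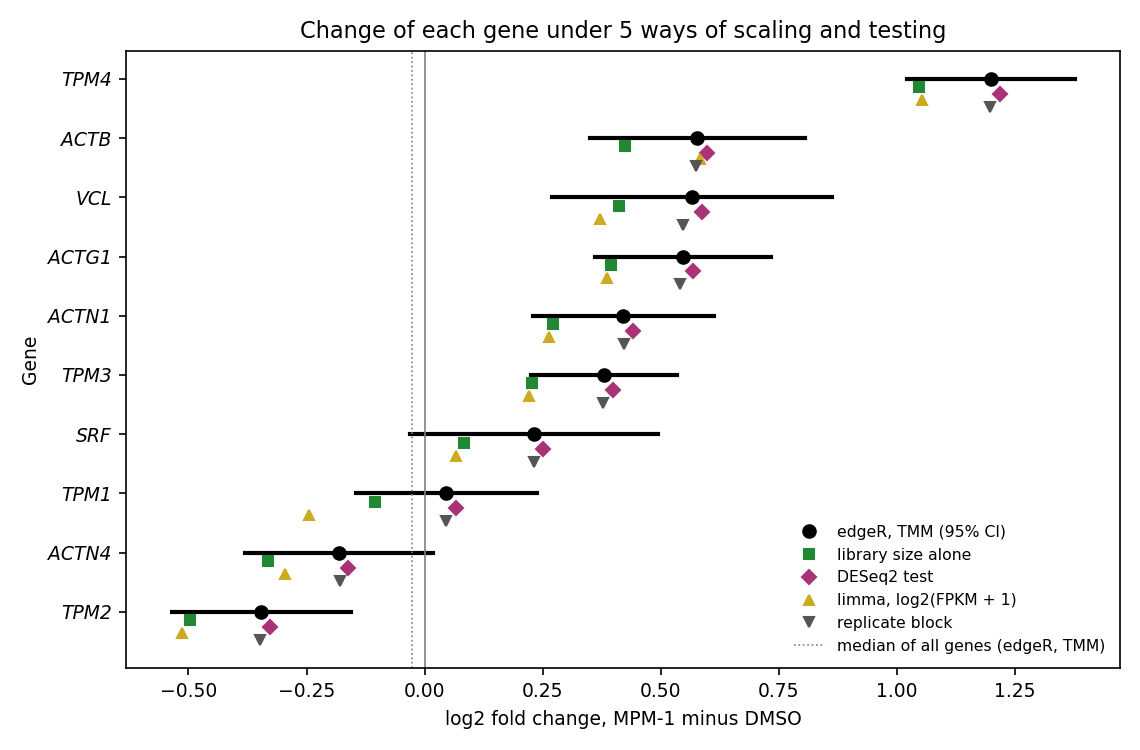
Log2 fold change of MPM-1 against DMSO for each of the 10 genes, as black points with the 95% CI from edgeR with TMM scaling and as coloured marks for 4 other scalings or tests. The dotted line is the median of all genes (-0.026), TPM4 lies furthest to the right at 1.20, and TPM1 changes sign between scalings.

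SRF, on chromosome 6 (chr6:43171299-43181507, plus strand), was at 25.5, 23.6 and 20.7 CPM in DMSO and at 24.5, 27.4 and 30.1 CPM in MPM-1. The groups overlapped, with MPM-1 replicate 1 inside the range of DMSO, and the log2 fold change of 0.23 had a 95% CI of -0.03 to 0.49 and an adjusted p of 0.118. Without that library it was 0.32 with an adjusted p of 0.0491. By FPKM, SRF was the lowest of the 10 genes in both treatments, at 5.65 ± 0.512 and 5.97 ± 0.661 FPKM.

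The order of the 10 genes by FPKM was the same in both treatments: ACTG1, ACTB, TPM4, TPM3, TPM2, ACTN4, ACTN1, TPM1, VCL and SRF. Neighbours in this order overlapped for TPM3 and TPM2 in DMSO (122 ± 4.72 and 120 ± 4.32 FPKM) but not in MPM-1 (143 ± 4.66 and 84.1 ± 5.25 FPKM). TPM2 and ACTN4 overlapped in MPM-1, where ACTN4 was at 79.3 ± 4.51 FPKM. TPM4 rose from 312 ± 14.9 to 648 ± 41.0 FPKM on this scale.

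The cofactors through which SRF acts showed 1 called change among the 6 found of 7, where 56.5% of all genes were called. SCAI, a repressor of MRTF, fell by 0.69 on the log2 scale (14.8 ± 0.492 to 9.18 ± 1.61 CPM, adjusted p = 0.00489). MRTFA (-0.054) and MRTFB (-0.13) did not pass, nor did the ternary complex factors ELK1 (0.062), ELK3 (0.30, adjusted p = 0.074) and ELK4 (0.094). ELK3 passed as higher in the DESeq2 test (adjusted p = 0.0498) and without MPM-1 replicate 1 (0.43, adjusted p = 0.00951). ELK1 and ELK4 turned negative with library size alone (-0.091 and -0.057), and the values of MRTFA and MRTFB changed sign when single libraries were left out.

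Of the cytoskeletal genes known as targets of MRTF and SRF, 15 of 25 found rose, 4 fell and 6 did not pass, with a median log2 fold change of 0.34, and with library size alone 10 rose and 5 fell. In limma on FPKM 9 rose. Over all genes 27.7% were higher and 28.8% lower in edgeR. None of the 10 genes above is counted in this list. CCN2, a matricellular growth factor, rose from 8.84 ± 0.472 to 32.5 ± 3.53 CPM (1.88 on the log2 scale, adjusted p = 2.7e-06). FHL2, a LIM-domain protein, rose from 188 ± 25.0 to 638 ± 58.3 CPM (1.76, adjusted p = 2.38e-06). MYL9, a regulatory light chain of myosin II, fell from 1.64 ± 0.128 to 0.282 ± 0.0915 CPM, and TAGLN2 fell by 0.68 on the log2 scale. Of the immediate early genes reached through the ternary complex factors, 5 of 13 rose and 2 fell (median 0.34). JUNB (1.82) and KLF6 (1.64) rose, and IER5 and BTG2 fell by 0.73 and 0.41 on the log2 scale. Neither fall passed without DMSO replicate 1 (adjusted p = 0.0641 and 0.0553), and that of BTG2 did not pass without DMSO replicate 2 (0.0707).

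Other parts of the actin machinery are given by count, where 27.7% of all genes were higher and 28.8% lower. Over all genes 2589 were higher and 4871 lower of 12982 with library size alone. In limma on log2(FPKM + 1), 2323 were higher and 4087 lower of 11497. In the list of the Arp2/3 complex, which nucleates branched filaments, and its activators, 17 of 21 genes rose and 1 fell (median 0.37), with library size alone 12 rose and 1 fell, and in limma on FPKM 8 rose and 1 fell. The activators WASL (1.08) and ABI1 (0.87) rose most and ACTR3B fell by 0.83 on the log2 scale. Of the crosslinkers, 9 of 14 rose and 2 fell (median 0.41). Among them were FLNC (2.10), a filamin, and EZR (1.32), which ties actin to the membrane, while ANLN of the cytokinetic ring fell by 1.34 on the log2 scale. FLNC was low, from 1.90 ± 0.320 to 8.12 ± 0.831 CPM (0.209 and 0.810 FPKM on average), and EZR went from 583 ± 89.2 to 1457 ± 142 CPM. In limma with the FPKM filter 5 of the crosslinkers rose. The second fall, of LIMA1 (-0.22), did not pass with DESeq2 size factors or when DMSO replicate 2 or 3 or MPM-1 replicate 2 or 3 was left out. Of the nonmuscle myosin II genes and their regulators, 6 of 12 rose and 2 fell. The rises were 8 with DESeq2 size factors and 4 with library size alone or in limma on FPKM. MYLK, a kinase of the light chain, was at 2.19 and MYH9 at 0.78, while MYH10 fell by 0.52 on the log2 scale. The other fall was that of MYL9, which the filters on low values remove.

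Of the genes that bind monomers or sever and cap filaments, 13 of 29 rose and 6 fell, against 9 and 9 with library size alone. Over all genes 27.7% were higher and 28.8% lower. TMSB4X, thymosin beta 4, which sequesters monomers, rose from 511 ± 44.6 to 1086 ± 53.5 CPM, and CAP2 had a log2 fold change of 1.67. SCIN and CORO1A fell by 2.57 and 2.01 on the log2 scale. SCIN was near the lower end of what was measured, from 2.17 ± 0.806 to 0.364 ± 0.173 CPM, and CORO1A went from 29.5 ± 0.862 to 7.34 ± 1.87 CPM. In the list of focal adhesion adaptors, 12 of 25 rose and 4 fell (9 and 7 with library size alone). CTNNA1 (1.28), an alpha-catenin of cell-cell junctions rather than focal adhesions, and TES (0.76) were highest. TNS1 and EVL fell by 1.24 and 1.20 on the log2 scale. Of the formins and other nucleators, 5 of 13 rose and 2 fell (5 and 4 with library size alone), led by SPIRE1 (1.13) and SPIRE2 (0.94). The fall of DIAPH3 (-0.44) did not pass when any one library other than MPM-1 replicate 1 was left out (adjusted p = 0.0626 to 0.148), which left that of COBL. Of the chaperonin CCT and prefoldin, which fold newly made actin and tubulin, 5 of 15 rose and 2 fell (median -0.0094). Its rises and its median were close to those of all genes (27.7% and -0.026). PFDN2 was at 1.63 and CCT7 fell by 0.46 on the log2 scale. With library size alone 4 rose and 4 fell, and in limma on FPKM 2 rose.

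Few muscle isoforms and actin-like paralogs were measured, and their calls stand beside 27.7% of all genes higher and 28.8% lower. Of 15 muscle actins and muscle isoforms, 6 were in the table, and TNNI2 alone passed, falling by 0.98 on the log2 scale. With library size alone 2 of the 6 fell, and in limma 3. Of 14 actin-like paralogs 7 were found, of which 4 rose and 2 fell, against 1 and 3 with library size alone or in limma. The rises were 1 without DMSO replicate 2 and 2 without DMSO replicate 3, and the falls 1 without MPM-1 replicate 3. In the smooth muscle list the summed level was 68.9 to 90.2 CPM in DMSO and 24.8 to 28.4 CPM in MPM-1. DES, the muscle intermediate filament gene desmin, fell from 46.3 ± 7.06 to 5.28 ± 0.965 CPM, and SMTN from 30.2 ± 4.80 to 20.7 ± 2.74 CPM. What part this list has in the changes of the actins and tropomyosins was not tested. In the immune list it was 67.2 to 94.6 CPM and 141 to 155 CPM, from CD68, a lysosomal protein, which rose (1.08), and CD14, which fell from 9.38 ± 0.646 to 3.70 ± 1.49 CPM (-1.34 on the log2 scale).

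**Figure D5:**
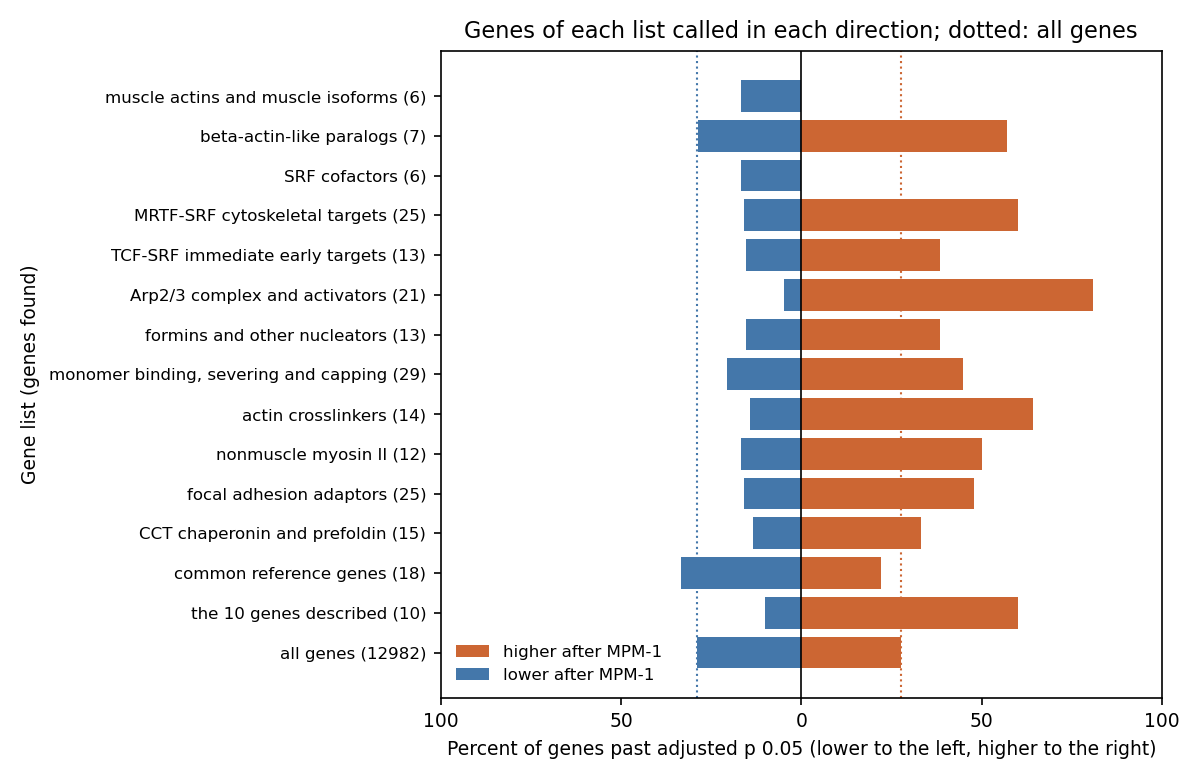
Percent of the genes found in each list that passed an adjusted p under 0.05, higher after MPM-1 to the right and lower to the left, with the number of genes found in brackets. Dotted lines mark the same for all 12982 genes, 27.7% higher and 28.8% lower, and the Arp2/3 list, with 17 of 21 genes higher, reaches furthest to the right. In limma on log2(FPKM + 1), 8 of the 21 were higher, and over all genes 2323 of 11497 were higher and 4087 lower.

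The genes whose log2 CPM followed that of ACTB most closely over the 6 libraries were IQGAP1, an actin-binding scaffold (Pearson's r = 0.997), LCORL (0.997), an unnamed gene listed as NewGene_4419 (0.995), CYP51A1 of sterol synthesis (0.995) and GCH1 (0.994). The correlation was at least 0.9 for 1508 genes, and the 6 points fall into the 2 treatments, so these values are a description. Among the 10 genes themselves, r with ACTB was 0.976 for ACTG1, 0.964 for TPM3, 0.943 for TPM4, 0.938 for VCL and 0.906 for ACTN1, against 0.61 for SRF, 0.252 for TPM1, -0.406 for ACTN4 and -0.751 for TPM2. For SRF the closest genes were TNFRSF1B (0.989), FOXA3 (0.983), TNFRSF1A (0.982), POLRMT (0.979) and SUSD6 (0.979), and 121 genes reached 0.9.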

How the data were processed

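SW480 cells received DMSO or MPM-1 for 24 h, and their RNA was sequenced by a company in 3 libraries per treatment. The submitters' processing notes name HISAT2, DESeq2 and the build mm10, although the identifiers are human. The counting tool and annotation are not given in the sources used here. The authors deposited a count per gene and library and the FPKM. A deposited log2 fold change and p-value (FDR) of the authors' own comparison were not used. Counts were fitted with edgeR 4.0.16 (TMM, quasi-likelihood test, R 4.3.3) on all 12982 genes, with Benjamini-Hochberg adjustment. SEs and intervals came from the F statistic. Ratios and shares were compared by exact permutation (scipy 1.17.1). Alternatives used DESeq2 1.42.0, limma 3.58.1 on log2(FPKM + 1, 0.1 or 0.01), library size alone, and single libraries left out. Positions came from GENCODE 29. The 10 genes and all lists were chosen with earlier results of these data known. From each list the 2 largest rises and falls past the threshold were eligible to be named, with all 10 genes, all reference genes and SRF cofactors, and the 5 genes most like ACTB and SRF. Some genes and a gene list are not reported here. Tests were tried on simulated data.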

Additional observations from a re-analysis of the deposited data

How the results depend on the processing

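Scaling moved the results as a whole. Over all genes the median of the log2 fold changes was -0.026 with TMM, -0.18 with library size alone and -0.13 to -0.15 in limma on FPKM. The split of calls over all genes moved with it, from 3596 higher and 3740 lower to 2589 and 4871 with library size alone. In limma the higher calls were 2323 (pseudocount 1), 2245 (0.1) and 2228 (0.01), the strict higher calls 351, 436 and 446, and 364 without the FPKM filter, and the strict lower calls 714 with pseudocount 1 and 742 without the filter. Of the 10 genes, 2 rather than 1 were lower with library size alone and in all 4 limma settings, and 1 to 2 when single libraries were left out, the second being ACTN4. TPM3 and VCL did not pass in limma with a pseudocount of 0.1 (adjusted p = 0.0552 and 0.0527) or 0.01 (0.0548 and 0.055). With counts in place of FPKM the log2 difference of the ratio of ACTG1 to ACTB was -0.033, and the share differences were -1.51 points for TPM1, -5.49 for TPM2, -8.10 for TPM3 and 15.1 for TPM4.

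The sign turned for TPM1 (-0.10 with library size alone, and in the limma settings -0.246 with pseudocount 1, -0.254 with 0.1 and 0.01, and -0.246 without the filter), for ELK1 (-0.091 with library size alone, -0.096 and -0.10 in limma), for ELK4 (-0.057 with library size alone), for RPL13A (-0.14 with library size alone and in limma, and between -0.050 and 0.046 with single libraries left out), for TUBB (-0.095, and -0.099 in limma) and for VDAC1 (-0.093, and -0.096 and -0.097 in limma). MRTFA reached 0.083 without DMSO replicate 1 and 0.031 without MPM-1 replicate 3, and MRTFB ran from -0.31 without DMSO replicate 1 to 0.047 without DMSO replicate 3. None of these passed the threshold. The cause was not tested.

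Libraries of the same replicate number did not deviate together (r = 0.0214, 0.114 and -0.0737), so the numbers were not taken to pair them. With the replicate block, 3475 genes were higher and 3642 lower, ACTB was at 0.57, ACTG1 at 0.54 and TPM4 at 1.20, and no call among the 10 genes changed, while RPLP0 and LIMA1 no longer passed (adjusted p = 0.0503 and 0.0512).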
